A study of Homo sapiens with 4 samples.

Results

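GREB1, ASRGL1, LRR1 and CEP120 are the 4 protein-coding genes outside the histone families that carried the strongest YTHDF1 RIP-seq windows. They were chosen by the signal value of their strongest window in the authors' table, so the height of those windows is a description and not a result. Together they held 11 of the 26819 listed windows, and they are 4 of 7550 genes and of 6647 protein-coding genes outside histones with a listed window. RNA immunoprecipitation sequencing (RIP-seq) recovers RNA bound to a protein and compares it with the total RNA of the same lysate. It was carried out here in SNU638, an established human gastric cancer cell line, with 2 IP-YTHDF1 libraries and 2 Input libraries labelled as biological replicates. All 4 libraries came from cells that overexpressed YTHDF1, stood 24 h in serum-free medium, and were exposed over 24 h to IFN-γ at 10 ng/ml. The immunoprecipitated protein was thus an overexpressed form in a single cell line, pulled down through a FLAG tag per the study's methods, and no untreated library or IgG control was analysed here. The table gives 1 signal value, 1 p-value and 1 q-value per 50 bp window and none per library. The study's legend speaks of a union of replicates, so a window may rest on a single one. No spread between replicates can be given, the depth of the libraries is unknown, and no test was run.

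YTHDF1 is a cytoplasmic reader protein of N6-methyladenosine (m6A), a mark that is placed on adenosines within the DRACH consensus, mostly in mRNA. Readers of this family shorten the life of marked transcripts or alter their translation. The 4 genes act in unrelated processes. GREB1 is an estrogen-responsive cofactor of the estrogen receptor, and ASRGL1 is an asparaginase that also cleaves isoaspartyl peptides. LRR1 is a substrate receptor of the CUL2 ubiquitin ligase and acts on the replicative helicase at the end of DNA replication. CEP120 is a centrosomal protein needed for the elongation of centrioles.

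The strongest window of GREB1 (ENSG00000196208, plus strand) had a signal value of 6.76, that of ASRGL1 (ENSG00000162174, plus strand) 5.63, that of LRR1 (ENSG00000165501, plus strand) 5.22 and that of CEP120 (ENSG00000168944, minus strand) 5.05. Just outside the group stood WDR74 with 4.82, CCDC40 with 4.76, RAMACL with 4.75 and HSPA1A with 4.57. The median of the strongest window per gene was 2.23 over the same coding genes, and the 99th percentile was 3.72. Of the 21 windows in the whole table with a signal value of at least 5, 15 lay in long non-coding RNA genes and 4 in these genes. Most of those 15 were listed under FP671120.4 or FP236383.3. Nearly all windows listed under these names overlapped the RefSeq ribosomal RNA genes RNA45SN2 or RNA45SN3, so they do not describe long non-coding RNA genes in general. The signal value has no stated scale. It is used to order windows, and its differences and means are given as descriptions only. The 5 member windows with a p-value listed as 0 were the strongest of each gene and the next window of GREB1, against 508 such windows in the table.

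**Figure D1:**
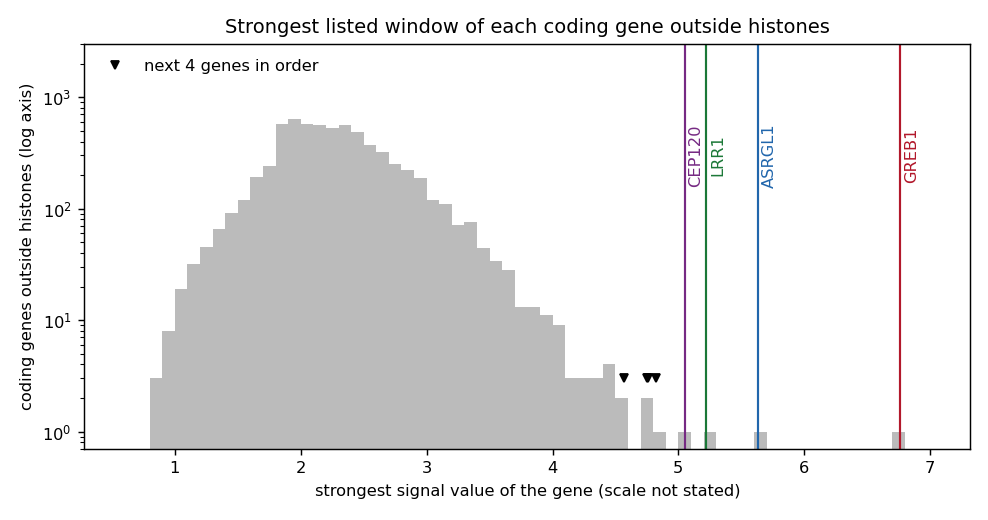
Histogram of the strongest signal value of each protein-coding gene outside histones (x axis, scale not stated; y axis, number of genes on a log axis). Coloured lines mark GREB1, ASRGL1, LRR1 and CEP120, which lie from 5.05 to 6.76, and triangles mark the next 4 genes, from 4.57 to 4.82.

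The genes differed in how their windows were spaced. GREB1 had 3 windows that touched each other and formed a single block of 150 bp. The windows of ASRGL1 lay 5450 bp apart, those of CEP120 lay 21250 bp apart, and the 4 windows of LRR1 were separated by 7200, 600 and 1700 bp. In ASRGL1, LRR1 and CEP120 the strongest window was the 3′-most listed one, and in GREB1 it was the 5′-most. Measured along the RefSeq interval from its 5′ end, the middle of the strongest window fell at 63.7% of GREB1, 39.8% of ASRGL1, 60.4% of LRR1 and 27.7% of CEP120. Exon positions were not used here, so no window is assigned to an exon or an intron.

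**Figure D2:**
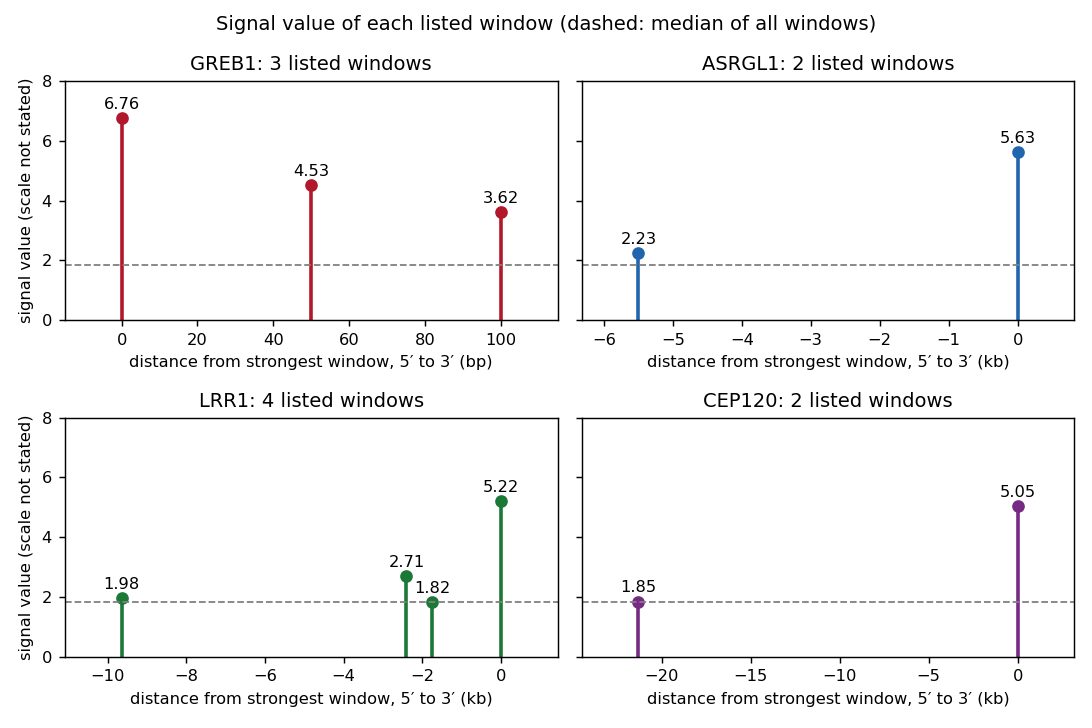
Signal value (y axis, scale not stated) of each of the 11 listed windows against its distance from the strongest window of the gene (x axis, 5′ to 3′, in bp for GREB1 and kb for the others). In GREB1 all 3 windows are high and adjacent, whereas in the other genes a single high window stands beside windows near the table median of 1.84 (dashed) or, at most, at 2.71.

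The strongest window exceeded the next one of the same gene by 3.40 in ASRGL1, 3.20 in CEP120, 2.51 in LRR1 and 2.23 in GREB1. These differences hold the value that chose the genes, so they are a description only. When genes were ordered by their second strongest window instead, GREB1 took place 2 of 4719, LRR1 place 264, ASRGL1 place 1158 and CEP120 place 2824. The mean over the windows of a gene put GREB1 at place 1 of 6647, ASRGL1 at 10, CEP120 at 31 and LRR1 at 123.

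**Figure D3:**
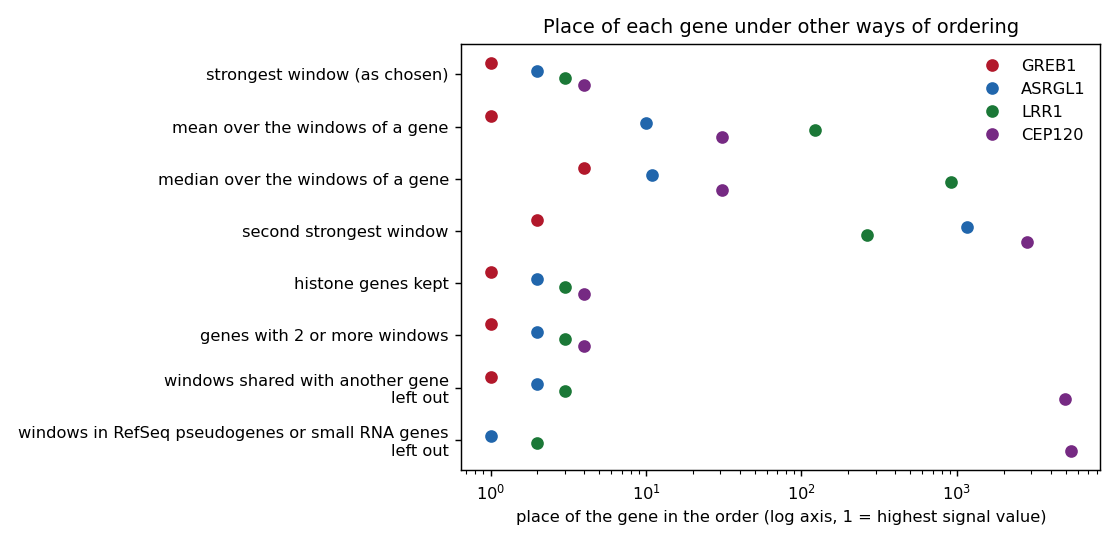
Place of each gene (x axis, log axis, place 1 being the highest signal value) under 8 ways of ordering (y axis). GREB1 has no point in the bottom row, because all its windows were left out there, and CEP120 falls to places 4932 and 5447 in the last 2 rows.

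The number of windows tested in a gene can be computed from its q-values and p-values, where q-values are Benjamini-Hochberg values within each gene. This was checked in 4170 genes with 2 to 8 windows, at least 2 of them with a p-value above 1e-14. In 4168 of these genes, the recomputed q-values of such windows came within 1% of those listed. The number of tested windows was taken from the same windows. GREB1, ASRGL1 and CEP120 each had only 1 window above that limit, so the check did not cover them. The number of tested windows came to 19 windows for GREB1, 125 for ASRGL1, 62 for LRR1 and 35 for CEP120, with a median of 35 over 6653 coding genes. GREB1 thus had 950 bp of tested sequence in a RefSeq interval of 159901 bp, and 21.9% of coding genes had fewer tested windows. In contrast, 97.3% of coding genes had fewer than ASRGL1. The listed windows were 15.8% of those tested in GREB1, 6.45% in LRR1, 5.71% in CEP120 and 1.6% in ASRGL1. How a window qualified for testing is not given in the sources used here.

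All 3 GREB1 windows lay inside RN7SL674P, a 200 bp pseudogene of 7SL RNA, the RNA of the signal recognition particle. RefSeq places it at chr2:11584773-11584972 (GRCh38.p14), inside the GREB1 interval. The first window, chr2:11584792-11584841, covered bases 20 to 69 of the pseudogene by rising coordinate and had the signal value of 6.76. Next to it, chr2:11584842-11584891 covered bases 70 to 119 with 4.53. The last, chr2:11584892-11584941, covered bases 120 to 169 with 3.62 and a q-value of 7.16e-11. The signal value therefore fell from the first to the last window of the block. No GREB1 window was listed outside the pseudogene, and no window was listed under the name RN7SL674P, whose strand is not given in the table used. RefSeq has 5 further small features inside GREB1 (RNA5SP84, MIR4429, TRG-CCC7-1, RNU2-13P and RNA5SP85), the nearest of which, RNA5SP85, lay 23012 bp from the block. The flanking coding genes E2F6 and NTSR2, both on the minus strand, had no listed window. The nearest listed window of any other gene was that of LPIN1 on the plus strand, 180704 bp from the block.

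The strongest window of CEP120, chr5:123401986-123402035, lay inside KRT8P33, a processed pseudogene of keratin 8, the filament protein of simple epithelia. RefSeq places it at chr5:123400672-123402418, and the authors' table lists it on the minus strand, as it does CEP120. The pseudogene had 2 listed windows of its own, and both shared bases with the CEP120 window. The window chr5:123401973-123402022 shared 37 bp with it and had a signal value of 0.91 (q-value 0.0263), against 5.05 for CEP120. The window chr5:123402023-123402072 shared 13 bp and had 1.89 (q-value 9.71e-08). Windows that shared most of their bases thus had different signal values under the names of the gene and the pseudogene. Among 1376 same-strand pairs of windows of different genes that shared at least 25 bp, the median difference in signal value was 0.21 and the 95th percentile 0.99. None of the pairs differed by more than the 4.14 between CEP120 and KRT8P33, a pair that was found through its high window.

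**Figure D4:**
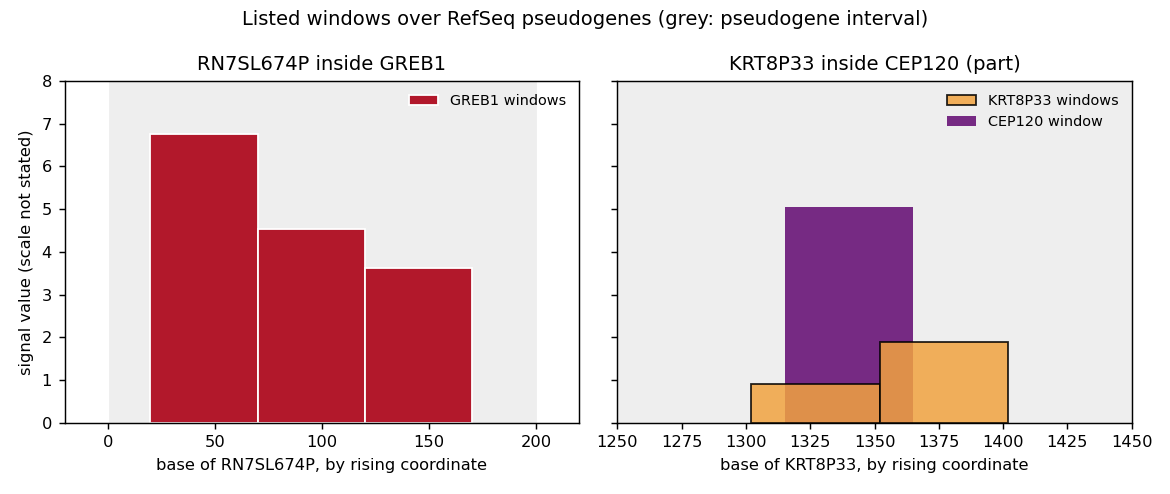
Signal value (y axis, scale not stated) of listed windows over RN7SL674P in GREB1 (left) and over part of KRT8P33 in CEP120 (right), with base positions counted from the lowest coordinate of each pseudogene (x axis). Bars are 50 bp windows and grey marks the pseudogene, which holds all 3 GREB1 windows and the CEP120 window of 5.05 beside KRT8P33 windows of 0.91 and 1.89.

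Overlap with such features, counted without regard to strand, was rare among coding genes. Of the 11 member windows, 4 overlapped a RefSeq pseudogene or a gene of a small or structural RNA, against 1.05% of all windows in coding genes (261 of 24754). Over strongest windows alone, the share was 2 of these 4 genes, 15% of the 100 coding genes next in order and 1.4% of all 6647. WDR74, the first gene outside the group, was among them, with its strongest window over the U2 small nuclear RNA gene RNU2-2. Only 16 coding windows, in 8 genes, overlapped a 7SL gene or copy (0.0646% of coding windows). The 13 of them outside GREB1 had a median signal value of 2.45 and reached 4.49, in PLXND1 over RN7SL752P. Among these 13, the RPS29 windows over RN7SL1 and the E2F3 window over RN7SL128P lay opposite to the strand listed for the 7SL gene or copy. The KCTD2 window over RN7SL573P, of 1.8, lay on the same strand as that copy. Under their own names, 6 genes of the 7SL family each had a window, from 1.00 to 2.67. KRT8 itself had 2 windows, of 0.89 and 1.42, and 8 KRT8 pseudogenes had 12 windows from 0.91 to 3.26. Copies of such RNAs share sequence with their parent genes, and how reads that match more than 1 place were treated is not given in the sources used here. Whether reads of 7SL RNA or of KRT8 mRNA contributed to the GREB1 and CEP120 windows was not tested.

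The other CEP120 window, chr5:123423286-123423335, reached 1.85 with a q-value of 0.005504. It began 68 bp downstream of a RefSeq start of CEP120 at position 123423403, and 507 bp downstream of the outer start at 123423842. This window overlapped no other RefSeq gene, and 13036 listed windows had a higher value. The nearest RefSeq gene at higher coordinates, the pseudogene HMGB3P17, began 44755 bp beyond the gene and had no listed window. CSNK1G3, on the plus strand at 88334 bp, had 3 windows of up to 3.20.

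Both ASRGL1 windows lay in gene sequence with no other RefSeq gene over them. The strongest, chr11:62362899-62362948, lay 25451 bp from the RefSeq start of the gene at 62337448. The weaker one, chr11:62357399-62357448, reached 2.23 with a q-value of 0.008855, and 6059 listed windows were higher. An antisense long non-coding RNA gene, LOC124902682 (chr11:62358517-62360931, minus strand), lay between them. It ended 1967 bp short of the strongest window and began 1068 bp beyond the weaker one. The pseudogene RCC2P6, the other RefSeq gene inside ASRGL1, lay 9019 bp from the strongest window. Neither had a listed window, and the nearest listed window of another gene was in AHNAK on the minus strand, 172094 bp away.

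The strongest window of LRR1, chr14:49608412-49608461, had no other RefSeq gene over it, and the pseudogene RHOQP1, inside LRR1, was 7498 bp away. The windows chr14:49606012-49606061 and chr14:49606662-49606711 had signal values of 2.71 (q-value 6.89e-06) and 1.82 (q-value 0.0409). The ribosomal protein gene RPS29 lies on the minus strand, and 229 bp separate its 5′ end from the RefSeq start of LRR1. Both genes thus point away from a short shared gap. RPS29 had 5 windows from 1.01 to 4.05, and all 5 overlapped the interval of the 7SL gene RN7SL1. RN7SL1 itself had 1 window of 1.43 on the plus strand. At higher coordinates, RPL36AL had no listed window, MGAT2 had 7 of up to 2.38 and DNAAF2 had 7 of up to 2.33. The long non-coding RNA gene AL139099.1, on the minus strand, had 6 windows from 1.15 to 2.63, the nearest of them 12354 bp from the strongest LRR1 window. POLE2, a subunit of DNA polymerase epsilon named here after its values were seen, had a window of 4.54 on the minus strand at 53.3 kb from the LRR1 start. No window of these genes shared bases with an LRR1 window.

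**Figure D5:**
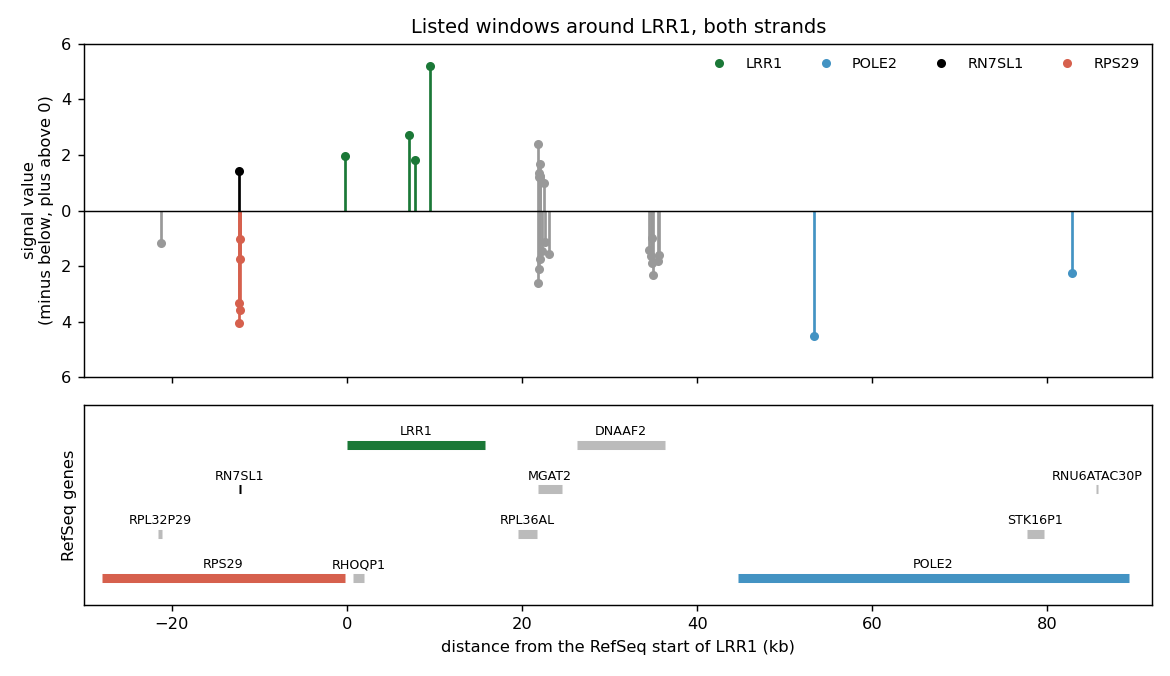
Signal value of listed windows around LRR1 (upper panel, plus strand above 0 and minus strand below, scale not stated) over the RefSeq genes of the region (lower panel), against distance from the RefSeq start of LRR1 in kb (x axis). The LRR1 window of 5.22 is the highest of the region. The 5 RPS29 windows, on the minus strand, stand near the single RN7SL1 window on the plus strand.

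The 5′-most LRR1 window, chr14:49598762-49598811, reached 1.98 with a q-value of 0.0163. It lay outside the RefSeq interval of LRR1, 51 bp from RPS29 and 128 bp before the first base of LRR1, and is the only member window whose sequence could be read from the RefSeq promoter stretches used here. The whole gap between both genes, chr14:49598711-49598939 on the plus strand of GRCh38.p14, is shown to place the window in it, with the window in capitals.
LRR1 gap: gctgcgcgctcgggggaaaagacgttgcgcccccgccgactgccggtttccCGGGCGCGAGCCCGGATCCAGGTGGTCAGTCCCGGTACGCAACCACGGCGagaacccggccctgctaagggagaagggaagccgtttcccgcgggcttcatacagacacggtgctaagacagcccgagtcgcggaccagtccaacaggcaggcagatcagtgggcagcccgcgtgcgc
The window was rich in G and C (74% against 68.6% for the gap). The DRACH consensus (A, G or T, then A or G, then A, then C, then A, C or T) did not occur in the window on the LRR1 strand, nor did GGAC, while 2 DRACH matches lay on the opposite strand of the window and 4 in the gap on the LRR1 strand. Over the 947 listed windows that lay wholly in such a stretch, 39.6% held DRACH on the strand of the gene, 41% on the opposite strand, and 23.7% held GGAC. When windows were widened by 50 bp on both sides, the LRR1 window held DRACH, as did 75.5% of the 489 windows covered. With 1 window of 11 covered, no statement on motifs is possible for the strong windows.

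In a list of a process for each member, other genes had listed windows at shares near or above that of all RefSeq coding genes. That share was 31.1%, or 31.8% when older symbols were matched too. These process lists were not limited to partners of the genes. In the estrogen-response list, 6 of 19 other genes had one (31.6%), led by the pioneer factor FOXA1 with 3.78 and the corepressor NRIP1 with 3.45, then XBP1 with 2.38 and KRT19 with 2.21. No window was listed for ESR1, which encodes the estrogen receptor, or for its targets PGR and TFF1. Of 13 other genes of asparagine and aspartate metabolism, 5 had a window (38.5%). Among them were the aspartate aminotransferase GOT2 with 2.48 and the isoaspartyl methyltransferase PCMT1 with 2.17, while ASNS and ASPG had none.

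In the list of the LRR1 ligase and of helicase unloading, 13 of 24 other genes had a window (54.2%). They included the unfoldase VCP with 2.89 and its cofactor UFD1 with 2.58, and the helicase subunits MCM5 with 2.59 and MCM6 with 2.39. CUL2, ELOB, ELOC and RBX1, the other subunits of the LRR1 ligase, had none. Of 25 other centriole genes, 9 had a window (36%), with CNTROB at 2.93, PLK4, the kinase that starts centriole duplication, at 2.73, C2CD3 at 2.63 and POC1B at 2.47. The medians of the strongest window over the genes with one were 2.30, 2.17, 2.04 and 2.32 in the 4 lists, against 2.22 over all RefSeq coding genes with a window. Whether a gene without a window was unbound or not expressed cannot be told apart.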

How the data were processed

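RIP-seq was analysed from 1 table of annotated peaks that gives 1 set of values per window for IP-YTHDF1 and Input, with no value per replicate. Per the submitters' processing notes, STAR 2.7.3a and GRCh38 were used, and the peak caller and its settings are not given in the sources used here. The signal value is a score per 50 bp window deposited by the authors without a scale, and p-values and q-values are likewise as deposited. The score is used to order and compare windows and is read neither as a ratio nor as coverage. Of 26820 rows, 1 repeated row was dropped. Starts, counted from 0 in the table, are printed from 1. The table has 0 columns of values for a single library.

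The members and gene lists were chosen with earlier results of these data known. The genes named are the 4 members, the 4 coding genes that follow them, overlapping and neighbouring genes, and up to 4 genes per list with the strongest windows, some of which are not reported here. Genes named to give absent windows, PLXND1, E2F3, KCTD2, POLE2, FP671120.4 and FP236383.3 were added after their values were seen. Histone genes were recognised by symbol (32 genes). RefSeq intervals, starts and promoter stretches (250 bases before to 50 after a start) are of GRCh38.p14. Tested windows per gene are the q-value divided by the p-value, times the order of the window, for p-values above 1e-14. This arithmetic was tested on simulated Benjamini-Hochberg values, which cannot show how the q-values of the authors were made. Python 3.11.15, pandas 2.3.3, NumPy 2.4.6 and matplotlib 3.10.9 were used.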

Additional observations from a re-analysis of the deposited data

How the results depend on the processing

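No paired analysis was possible because no value is given per replicate, and for the same reason no replicate could be left out. A q-value limit of 0.001 left 7 of the 11 member windows, including the strongest of each gene. Leaving out windows in RefSeq pseudogenes or small RNA genes, an alternative chosen after seeing the data, also left 7. It removed GREB1 altogether, moved ASRGL1 to place 1 and LRR1 to place 2, and lowered the strongest window of CEP120 to 1.85 and its place to 5447. Leaving out windows that share bases with a window of another gene gave CEP120 the same 1.85 and place 4932, and did not move the other genes. By the mean over the windows of a gene, ASRGL1 stood at place 10, CEP120 at 31 and LRR1 at 123. By the median, GREB1 stood at 4, ASRGL1 at 11, CEP120 at 31 and LRR1 at 911. By the second strongest window, the places were 2 for GREB1, 264 for LRR1, 1158 for ASRGL1 and 2824 for CEP120. These shifts follow from which windows enter the order. Within 1 kb of the member windows RefSeq has 4 other genes, of which 1 is on the same strand, 2 have no strand given here, and 6 genes lie within 10 kb. The share of member windows with DRACH, 0% over the single window with sequence, became 100% on the opposite strand and when that window was widened by 50 bp on both sides. Of 72 values recomputed, 41 did not move or, for counts, stayed within 1.5 times, among them all list counts.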
